A study of Mus musculus with 24 samples.

Results

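Immediate early genes are the first genes a cell transcribes after a stimulus, without making new protein beforehand. Here 10 of them were followed in mouse lung, chosen by name: Fos, Fosb, Jun, Junb, Egr1, Egr2, Ier2, Dusp1, Btg2 and Zfp36. All 10 were measured, each by 1 probe set, among 19505 genes on the array. The RNA came from lungs of mice killed at 6 months of age. The study set wild-type mice beside Marfan mice and gave each genotype vehicle or sildenafil. Marfan syndrome is a hereditary weakness of connective tissue due to mutated fibrillin-1. Sildenafil blocks phosphodiesterase 5, an enzyme that degrades cyclic GMP, and was given in drinking water from 6 weeks of age until the mice were killed at 6 months. Among wild-type mice, values were present for 6 vehicle and 4 sildenafil arrays, and among Marfan mice for 5 of each. The study planned 6 per group. The 4 missing arrays, 2 of them wild-type sildenafil and 1 each Marfan vehicle and Marfan sildenafil, are marked as failing quality control. The labels do not name the Marfan allele, the strain, the sex or the litter of a mouse, nor the vehicle. They repeat the sildenafil protocol for the vehicle samples too, so the group was taken from the sample title. Array numbers run on across the groups, and a number names 1 array.

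In resting tissue these genes are as a rule transcribed less than after a stimulus. On these arrays the mean signal of Fosb was at percentile 44.6 of all genes. The other members lay between percentiles 68.3 (Fos) and 99.5 (Dusp1). Growth factors, stretch, stress or tissue handling activate MAP kinases, which phosphorylate transcription factors already sitting on the promoters, among them the ternary complex factors with SRF (serum response factor, which binds the CArG box) and CREB (which binds the cyclic AMP response element, CRE). The transcripts appear within minutes and decay fast. Fos and Fosb proteins pair with Jun and Junb proteins to form AP-1, a factor that switches on later genes, and Egr1 and Egr2 are zinc finger factors that bind GC-rich sites. Dusp1 removes phosphate from MAP kinases, and Zfp36 (tristetraprolin) and Btg2 promote decay of messenger RNA, so these 3 damp the response. Ier2 is a nuclear protein of the same early class. In lung, immediate early genes respond to ventilation, stretch and injury and also to the excision and dissociation of the tissue itself.

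The upstream sequences show how a short stretch of promoter differs between these genes. RefSeq sequences of assembly GRCm38.p6 were matched for 8 of the 10 genes by symbol. No entry was used for Egr1 and Ier2. The 250 bases before the start of transcription are printed for the matched genes whose difference in at least 1 comparison averaged over the other factor had an unadjusted p under 0.05. They are written 5′ to 3′ on the strand of the gene, with every match to a CRE (TGACGTCA), its short form (TGACG), a CArG box or an EGR site (GCGNGGGCG) in capitals. Both strands were searched, and each CRE contains the short form on both strands. The windows are chr12:85473640-85473889 on the plus strand for Fos, chr7:19310046-19310295 on the minus strand for Fosb, chr8:84978749-84978998 on the minus strand for Junb, chr17:26508473-26508722 on the minus strand for Dusp1, chr1:134079156-134079405 on the minus strand for Btg2 and chr7:28379229-28379478 on the minus strand for Zfp36.
Fos: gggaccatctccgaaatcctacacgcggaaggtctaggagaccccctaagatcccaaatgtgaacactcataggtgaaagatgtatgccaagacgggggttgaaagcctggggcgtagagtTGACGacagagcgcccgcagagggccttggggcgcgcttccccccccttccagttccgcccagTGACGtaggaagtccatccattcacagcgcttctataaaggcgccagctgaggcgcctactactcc
Fosb: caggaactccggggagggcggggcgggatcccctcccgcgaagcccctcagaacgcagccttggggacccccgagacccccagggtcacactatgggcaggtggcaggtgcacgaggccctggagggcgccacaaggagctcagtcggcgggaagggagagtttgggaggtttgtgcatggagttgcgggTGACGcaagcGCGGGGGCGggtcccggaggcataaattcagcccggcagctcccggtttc
Junb: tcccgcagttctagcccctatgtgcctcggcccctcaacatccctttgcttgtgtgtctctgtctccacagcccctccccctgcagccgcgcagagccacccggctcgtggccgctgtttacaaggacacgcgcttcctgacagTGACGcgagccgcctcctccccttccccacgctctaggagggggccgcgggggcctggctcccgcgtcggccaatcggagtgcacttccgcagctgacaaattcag
Dusp1: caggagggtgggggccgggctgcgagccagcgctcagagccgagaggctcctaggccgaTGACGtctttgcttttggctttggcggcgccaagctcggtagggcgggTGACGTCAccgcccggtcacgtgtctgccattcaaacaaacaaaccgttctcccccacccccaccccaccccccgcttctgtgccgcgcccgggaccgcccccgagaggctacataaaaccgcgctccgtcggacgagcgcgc
Btg2: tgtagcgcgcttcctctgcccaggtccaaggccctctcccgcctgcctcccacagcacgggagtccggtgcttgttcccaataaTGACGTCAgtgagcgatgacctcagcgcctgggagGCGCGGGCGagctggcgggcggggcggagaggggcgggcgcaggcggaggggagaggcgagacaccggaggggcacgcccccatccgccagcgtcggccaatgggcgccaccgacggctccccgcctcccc
Zfp36: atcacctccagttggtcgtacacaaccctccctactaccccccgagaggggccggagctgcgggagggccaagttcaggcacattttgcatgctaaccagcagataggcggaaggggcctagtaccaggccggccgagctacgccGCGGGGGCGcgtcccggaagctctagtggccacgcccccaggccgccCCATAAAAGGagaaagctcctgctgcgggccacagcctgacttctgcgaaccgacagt

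Several genes have more than 1 start in the RefSeq table, and a gene was counted where at least 1 of its windows held the motif. The short CRE form was found in 6 of the 8 genes (Btg2, Dusp1, Egr2, Fos, Fosb and Junb) and in 19.8% of the 27025 genes in the table. Egr2 has 5 windows, of which 3 held it, and each of the other 7 genes has 1. Fos held it in 2 places, which began 129 and 66 bases before the start, and a TATAAA box beginning 33 bases before it. TATAAA was found in no other of the 8 genes and in 14.3% of all genes. A full CRE was found in Btg2 and Dusp1 and in 1.77% of all genes. A CArG box was found in Egr2 and Zfp36 and in 1.62% of all genes. In Zfp36 it began 58 bases before the start. An EGR site was found in Btg2, Fosb and Zfp36 and in 5.33% of all genes. An AP-1 site (TGANTCA) was found in none of the 8 genes and in 7.82% of all genes. These matches describe letters in a short window and say nothing about binding in these lungs.

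RNA amounts were read as log2 signal after quantile normalization, so that each further unit multiplies the signal by the same factor. Differences were estimated for 7 comparisons with limma over all 19505 genes, and p-values were adjusted by Benjamini-Hochberg over all of them. No gene on the array passed an adjusted p of 0.05 in any comparison. The member values below are therefore differences that did not pass, given with their unadjusted p and with the share of all genes that reached the same unadjusted p. In whole lung, fewer cells of a type and less RNA per cell cannot be told apart.

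Across all 20 arrays, Fos and Egr1 showed the widest differences between vehicle and sildenafil lungs. Averaged over both genotypes, Fos was 2.05-fold higher with sildenafil (95% confidence interval 1.38 to 3.04) and Egr1 was 1.91-fold higher (1.32 to 2.76). Of the 10 genes, 9 had a positive averaged difference, as did 49% of all genes. An unadjusted p under 0.05 was reached by 6 of them and by 5.17% of all genes in that direction. The median of the 10 differences was 0.33 log2 units, beside -0.0034 over all genes. Ier2 was the exception, with a difference of -0.0041 ± 0.14 (SE).

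**Figure D1:**
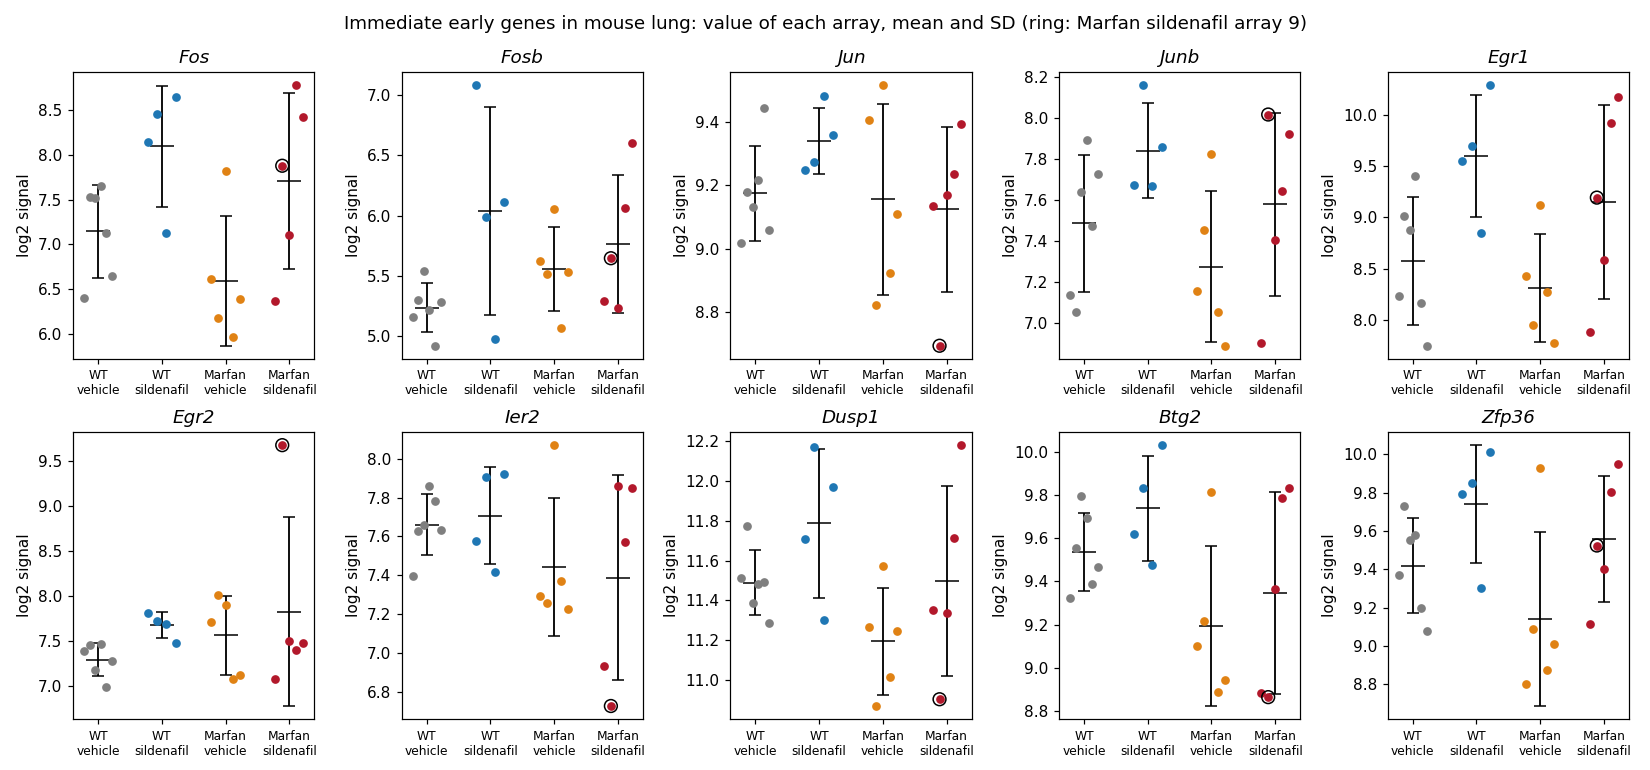
Log2 signal of the 10 immediate early genes on each array (points), with the mean and SD of each group (bars); the columns of each panel are the 4 groups, the scale differs between panels, and a ring marks Marfan sildenafil array 9. In Fos and Egr1 most sildenafil arrays lie above the vehicle arrays of the same genotype, while in Jun and Ier2 the groups cover much the same range.

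Fos encodes the best known partner in AP-1. In wild-type lungs given vehicle its log2 signal ran from 6.40 to 7.65 with a median of 7.32. On the wild-type sildenafil arrays 1, 4, 5 and 6 it was 8.15, 8.45, 7.13 and 8.65. Arrays 1, 4 and 6 stood above every wild-type vehicle array and array 5 lay within the vehicle range. In Marfan lungs given vehicle, arrays 20 to 24 read 6.61, 6.17, 7.82, 5.97 and 6.38. In Marfan lungs given sildenafil, arrays 8 to 12 read 6.37, 7.88, 7.10, 8.78 and 8.43. Arrays 9, 11 and 12 stood above all Marfan vehicle arrays and arrays 8 and 10 did not. Over both genotypes, 6 of 9 sildenafil arrays were higher than the highest of 11 vehicle arrays (7.82). In wild-type lungs the mean was 7.14 ± 0.52 (SD, n = 6) with vehicle and 8.09 ± 0.68 (n = 4) with sildenafil. In Marfan lungs it was 6.59 ± 0.73 (n = 5) with vehicle and 7.71 ± 0.98 (n = 5) with sildenafil. The difference with sildenafil was 0.95 ± 0.39 (SE) in wild-type lungs, with an unadjusted limma p of 0.0234, and 1.12 ± 0.39 in Marfan lungs, with an unadjusted limma p of 0.0076. The averaged difference of 1.04 ± 0.28 had an unadjusted limma p of 0.000933 and an adjusted p of 0.162.

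Fosb, a close relative of Fos, exceeded its highest wild-type vehicle value on 3 of the 4 wild-type sildenafil arrays. Its wild-type vehicle values ran from 4.92 to 5.54 with a median of 5.25, and the wild-type sildenafil arrays 1, 4, 5 and 6 read 7.09, 5.99, 4.97 and 6.11. Array 1 alone gave the largest value of the 20. Marfan vehicle arrays 20 to 24 read 5.62, 5.51, 6.05, 5.06 and 5.53, and Marfan sildenafil arrays 8 to 12 read 5.29, 5.65, 5.23, 6.06 and 6.60. The Marfan groups overlapped over most of their range. The difference was 0.80 ± 0.29 (SE) in wild-type lungs (unadjusted limma p 0.0106) and 0.21 ± 0.28 in Marfan lungs (unadjusted limma p 0.469), and the averaged difference of 0.51 ± 0.20 had an adjusted limma p of 0.352. Without wild-type sildenafil array 1 the wild-type difference was 0.46 ± 0.27 (unadjusted limma p 0.11) and the averaged difference 0.33 ± 0.18 (unadjusted limma p 0.0839). Without array 5 of the same group the wild-type difference was 1.16, and without Marfan sildenafil array 12 the Marfan difference was 0.00056.

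The Jun side of AP-1 differed less. Jun itself read between 9.02 and 9.44 (median 9.16) in wild-type vehicle and 9.25, 9.27, 9.48 and 9.36 on wild-type sildenafil arrays 1, 4, 5 and 6. Marfan vehicle arrays 20 to 24 read 9.40, 8.82, 9.52, 8.92 and 9.11, and Marfan sildenafil arrays 8 to 12 read 9.14, 8.69, 9.17, 9.23 and 9.39. No sildenafil array exceeded the highest vehicle array, and the averaged difference was 0.067 ± 0.093 (95% confidence interval -0.12 to 0.26). Junb, which forms AP-1 dimers of weaker activity, ran from 7.05 to 7.89 (median 7.55) in wild-type vehicle and read 7.67, 8.16, 7.67 and 7.86 with sildenafil on arrays 1, 4, 5 and 6. In Marfan lungs Junb read 7.15, 7.45, 7.82, 7.05 and 6.89 on vehicle arrays 20 to 24 and 6.90, 8.02, 7.41, 7.65 and 7.92 on sildenafil arrays 8 to 12. Its groups overlapped in both genotypes. The averaged difference of Junb was 0.33 ± 0.14 (SE), with an unadjusted limma p of 0.0294 and an adjusted p of 0.388.

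Egr1, the zinc finger factor, varied much as Fos did. Wild-type vehicle arrays ran from 7.75 to 9.41 with a median of 8.55. The wild-type sildenafil arrays 1, 4, 5 and 6 read 9.55, 9.70, 8.85 and 10.29, of which 3 were above every vehicle array of their genotype. Marfan vehicle arrays 20 to 24 read 8.43, 7.95, 9.13, 8.27 and 7.78, and Marfan sildenafil arrays 8 to 12 read 7.88, 9.19, 8.58, 9.92 and 10.18. Array 8 lay among the lowest of all and array 22 was the highest Marfan vehicle array, as for Fos. The difference was 1.03 ± 0.37 (SE) in wild-type lungs (unadjusted limma p 0.0101) and 0.84 ± 0.36 in Marfan lungs (unadjusted limma p 0.0282). Averaged, it was 0.93 ± 0.26 with an unadjusted limma p of 0.00132 and an adjusted p of 0.168.

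Egr2, the sister factor known from nerve myelination and macrophages, was set apart by 1 array. Wild-type vehicle arrays ran from 7.00 to 7.47 (median 7.33), and wild-type sildenafil arrays 1, 4, 5 and 6 read 7.82, 7.72, 7.69 and 7.48. Those groups did not overlap, the only such case among the 10 genes in this comparison, against 1.42% of all genes without overlap in the same direction. The gap was narrow, between 7.47 and 7.48, and the limma estimate of 0.38 ± 0.31 (SE) had an unadjusted p of 0.234. Marfan vehicle arrays 20 to 24 read 7.71, 8.02, 7.90, 7.08 and 7.12, and Marfan sildenafil arrays 8 to 12 read 7.08, 9.67, 7.50, 7.40 and 7.48. Array 9 stood at 9.67, and the next array of its group at 7.50. Without it the Marfan difference turned from 0.26 to -0.20.

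The same array 9 differed from the other 19 in markers of several cell types. The mean log2 level of 6 measured macrophage markers was 9.20 there and 7.70 to 8.51 on the other arrays, that of 9 heart muscle markers 5.49 against 7.83 to 8.71, and that of 10 endothelial markers 8.80 against 9.70 to 10.17. Their part in the Egr2 value was not tested. On array 9 Jun, Ier2 and Btg2 had their lowest values of the 20 arrays (Jun 8.69, Ier2 6.73, Btg2 8.86), and Dusp1 was the lowest of its group at 10.90. Without array 9 the averaged sildenafil comparison had 74 genes past the adjusted threshold over the whole array, against 0 with it, and no member was among them.

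Zfp36 and Dusp1, both brakes on the response, had smaller averaged differences that ran the same way in each genotype. Zfp36 ran from 9.08 to 9.73 (median 9.46) in wild-type vehicle and read 9.79, 9.85, 9.30 and 10.01 on wild-type sildenafil arrays 1, 4, 5 and 6. Marfan vehicle arrays 20 to 24 read 8.80, 9.09, 9.93, 8.87 and 9.01, and Marfan sildenafil arrays 8 to 12 read 9.11, 9.52, 9.40, 9.80 and 9.95. Marfan vehicle array 22 was the highest of its group, and the other 4 vehicle arrays were below all 5 sildenafil arrays. The averaged difference of Zfp36 was 0.37 ± 0.13 (SE), with an unadjusted limma p of 0.00988 and an adjusted p of 0.277. Dusp1 ran from 11.29 to 11.77 (median 11.49) in wild-type vehicle and read 11.71, 12.17, 11.30 and 11.97 with sildenafil on arrays 1, 4, 5 and 6. In Marfan lungs Dusp1 read 11.27, 10.87, 11.57, 11.02 and 11.25 on vehicle arrays 20 to 24 and 11.35, 10.90, 11.34, 11.71 and 12.18 on sildenafil arrays 8 to 12. The groups overlapped in both genotypes, and 3 of 9 sildenafil arrays were above the highest vehicle array. The averaged difference of Dusp1 was 0.30 ± 0.13 (unadjusted limma p 0.0279, adjusted p 0.383).

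Btg2 and Ier2, like Jun, showed little separation by treatment. Btg2 ran from 9.32 to 9.80 (median 9.51) in wild-type vehicle and read 9.62, 9.83, 9.48 and 10.03 with sildenafil on arrays 1, 4, 5 and 6. Marfan arrays of Btg2 read 9.10, 9.22, 9.81, 8.89 and 8.94 with vehicle (arrays 20 to 24) and 8.88, 8.86, 9.36, 9.78 and 9.83 with sildenafil (arrays 8 to 12). Its averaged sildenafil difference was 0.18 ± 0.13 (SE, 95% confidence interval -0.089 to 0.45). Ier2 ran from 7.40 to 7.86 (median 7.65) in wild-type vehicle and read 7.58, 7.91, 7.42 and 7.92 on wild-type sildenafil arrays 1, 4, 5 and 6. Marfan arrays of Ier2 read 7.29, 7.25, 8.07, 7.37 and 7.22 with vehicle and 6.93, 6.73, 7.86, 7.57 and 7.85 with sildenafil. Marfan vehicle array 22 was the highest Ier2 value of all 20, and no sildenafil array exceeded it. The 95% confidence interval of the averaged Ier2 difference reached from -0.29 to 0.28.

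**Figure D2:**
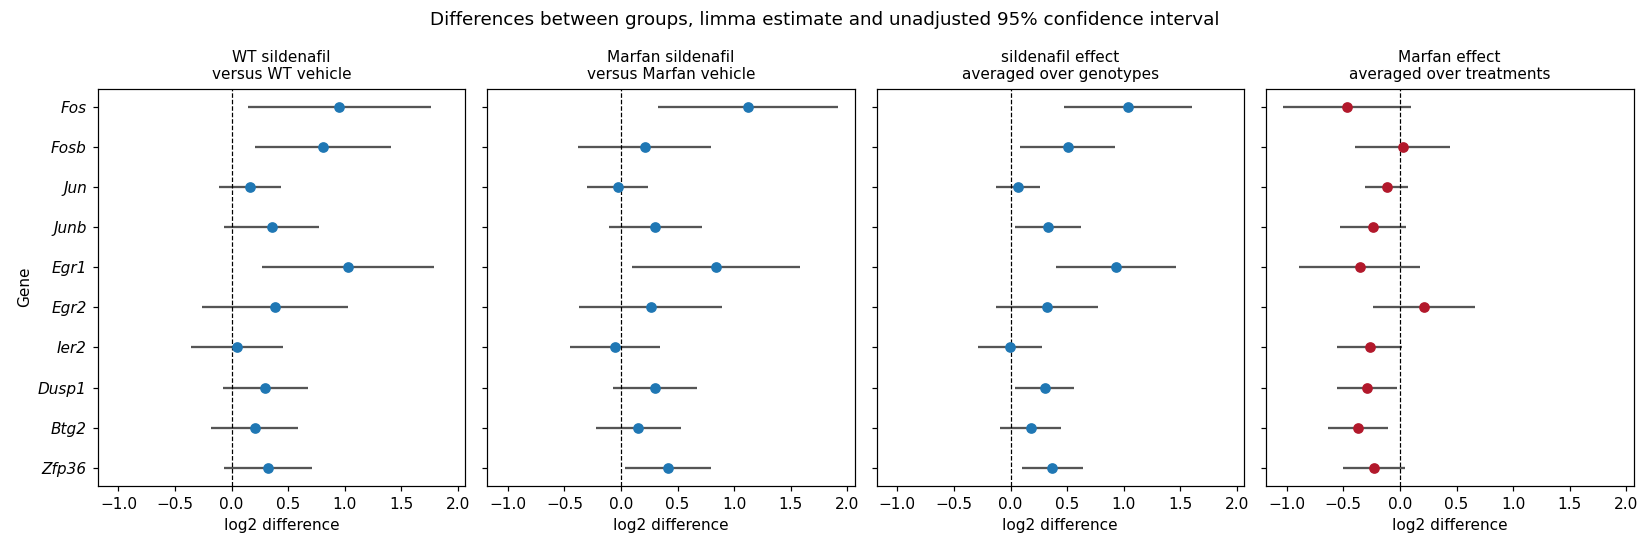
Log2 difference of each gene (points) with its unadjusted 95% confidence interval (lines) from limma for sildenafil against vehicle in wild-type lungs, in Marfan lungs and averaged, and for Marfan against wild-type averaged over treatments. In the averaged sildenafil panel the intervals of 6 genes lie above 0, and in the averaged Marfan panel those of Btg2 and Dusp1 lie below 0.

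By genotype, all 10 genes had a positive sildenafil difference in wild-type lungs (median 0.34), as did 49.6% of all genes, and Fos, Fosb and Egr1 had an unadjusted p under 0.05, a p that 4.65% of all genes reached in that direction. Leaving out single arrays took the unadjusted p of the wild-type Fos difference over 0.05 for 4 of 20 arrays, and those of Fosb and Egr1 for 1 each. In Marfan lungs 8 of 10 differences were positive (median 0.28), as were 48.4% over all genes, and Fos, Egr1 and Zfp36 had an unadjusted p under 0.05, against 3.29% of all genes in that direction. Without single arrays the p of Fos stayed under 0.05 for all 20 arrays, that of Egr1 was over it for 4 and that of Zfp36 for 6. Whether sildenafil acted differently in the genotypes was tested as an interaction, the Marfan difference minus the wild-type difference. None of the 10 genes reached an unadjusted p under 0.05 in it, where 1.96% of all genes did so on the higher side and 2.51% on the lower. The estimates were 0.17 ± 0.55 (SE) for Fos, -0.19 ± 0.52 for Egr1 and -0.60 ± 0.41 for Fosb. Intervals of that width do not show that the genotypes responded alike.

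Most of the 10 genes had lower estimates in Marfan than in wild-type lungs under both treatments, none of which passed the test. Under vehicle 8 of 10 genes were lower in Marfan lungs, with a median of -0.24, beside 51.2% of all genes. None had an unadjusted p under 0.05 (3.48% of all genes did on the higher side and 2.78% on the lower). Under sildenafil 9 of 10 were lower, with a median of -0.28, beside 51.3% of all genes, again none with an unadjusted p under 0.05 (1.87% of all genes on the higher side and 2.03% on the lower). Averaged over treatments, 8 of 10 were lower with a median of -0.25, beside 51.8% of all genes. Btg2 and Dusp1 had an unadjusted p under 0.05, where 2.55% of all genes did on that side. Btg2 averaged -0.37 ± 0.13 (SE, unadjusted limma p 0.00888) and Dusp1 -0.29 ± 0.13 (unadjusted limma p 0.032), both with an adjusted limma p of 0.918. These counts turned on single arrays. Without Marfan vehicle array 22, 5 members had an unadjusted p under 0.05 on the lower side under vehicle and 6 averaged over treatments. The averaged count was 5 without wild-type sildenafil array 5, 4 without Marfan sildenafil array 12 and 1 at its lowest, and the count under sildenafil was 3 without either array 5 or array 12. The shares of all genes above belong to the fit with all 20 arrays. Those without single arrays are not given here, so these counts cannot be set against all genes. The unadjusted p of Dusp1 was over 0.05 without any 1 of 8 arrays, and that of Btg2 was under it without each of the 20. With the deposited values, without quantile normalization, neither gene had an unadjusted limma p under 0.05. Btg2 was then -0.23 ± 0.16 (p 0.16) and Dusp1 -0.19 ± 0.15 (p 0.218). Under vehicle, 4 of the 5 Marfan arrays had Btg2 below every wild-type array, whose lowest was 9.32, and the fifth, array 22, read 9.81, above all of them. Egr2 and Fosb were the 2 genes with a positive Marfan estimate, of 0.21 ± 0.22 and 0.023 ± 0.20. The treatment and genotype comparisons share arrays, so their counts are not separate evidence.

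**Figure D3:**
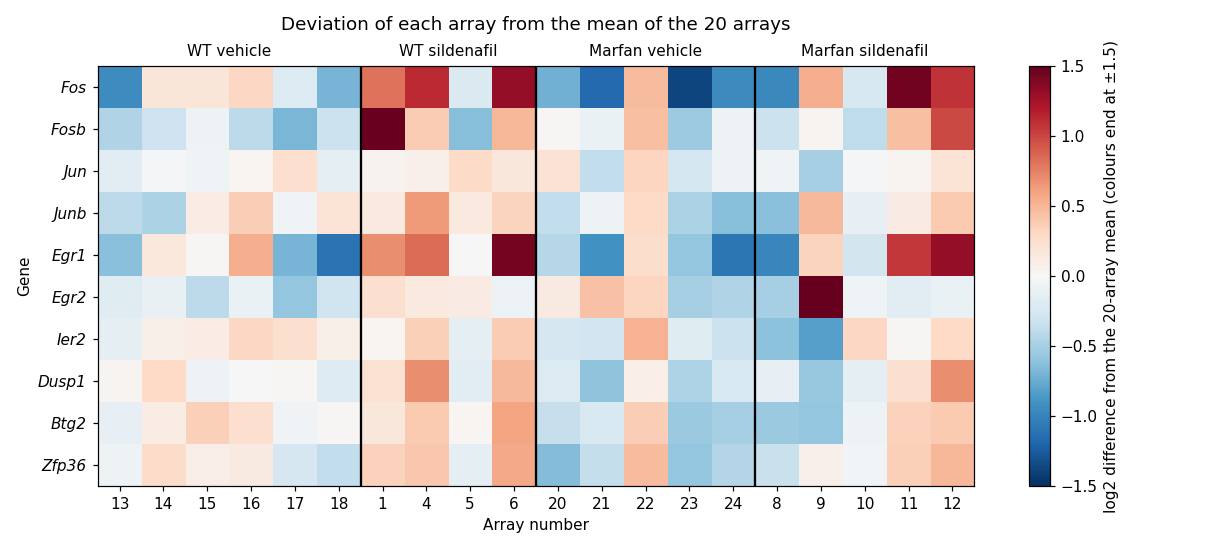
Difference of each gene (rows) on each array (columns, grouped by genotype and treatment) from its mean over the 20 arrays, in log2 units; red is above and blue below the mean, and colours end at 1.5. Arrays 1, 4, 6, 11 and 12 (sildenafil) and 22 (vehicle) are red in nearly every row, and arrays 23, 24 and 8 are blue in nearly every row.

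Arrays of one group differed widely. Each gene was taken as its deviation from the 20-array mean, and the deviations of the 10 genes were averaged for every array. Marfan sildenafil array 12 stood highest at 0.58, followed by wild-type sildenafil arrays 6 (0.57), 4 (0.50) and 1 (0.42), Marfan sildenafil array 11 (0.39) and Marfan vehicle array 22 (0.36). The first 5 of these are all sildenafil arrays. At the low end stood Marfan vehicle array 23 (-0.55), array 8 of the Marfan sildenafil group (-0.51) and the Marfan vehicle arrays 24 (-0.48) and 21 (-0.37). In all, 6 of 9 sildenafil and 4 of 11 vehicle arrays were above 0. Marfan vehicle array 22 held the highest value of its group for 9 of the 10 genes, all but Egr2. Wild-type sildenafil array 5 held the lowest value of its group for 8 genes and Marfan sildenafil array 8 for 5.

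Arrays 5 and 8 shared another feature. The mean log2 level of 3 measured Y-linked genes was between 2.62 and 3.15 on 6 arrays and between 7.31 and 7.85 on the other 14. The 6 low arrays were 2 wild-type vehicle, 1 wild-type sildenafil (array 5), 2 Marfan vehicle and 1 Marfan sildenafil (array 8). Of these 6 arrays 1 had a mean deviation of the 10 genes above 0, and of the other 14 arrays 9 did. With the Y-linked level as a covariate the averaged sildenafil difference was 0.96 ± 0.25 (SE) for Fos and 0.88 ± 0.25 for Egr1, and 6 members had an unadjusted p under 0.05. The share of all genes that reached it with this covariate is not given here.

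Brightness of the arrays also moved with the groups. The median of the deposited values was 5.32 to 5.83 on the wild-type vehicle arrays and 5.73 to 6.45 on the 14 others. With that median as a covariate the averaged difference of Fos was 0.82 ± 0.31 (SE, unadjusted limma p 0.015, adjusted p 0.495) and that of Egr1 0.68 ± 0.29 (unadjusted limma p 0.0262, adjusted p 0.536), and 4 members had an unadjusted p under 0.05, which were Fos, Egr1, Junb (0.44 ± 0.16) and Egr2 (0.59 ± 0.23). Fosb (0.35 ± 0.23), Dusp1 (0.15 ± 0.14) and Zfp36 (0.22 ± 0.14) no longer had one. For this covariate too the share of all genes is not given here. The wild-type groups did not overlap in brightness, as the wild-type sildenafil arrays had medians of 5.87 to 6.19. With brightness as a covariate none of the 3 wild-type differences kept an unadjusted limma p under 0.05. Fos was 0.56 ± 0.49 (p 0.267), Egr1 0.56 ± 0.45 (p 0.225) and Fosb 0.52 ± 0.36 (p 0.166).

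The mean of the endothelial markers separated the wild-type groups as well. The mean level of the 10 genes Pecam1, Cdh5, Kdr, Tek, Tie1, Vwf, Cldn5, Plvap, Gpihbp1 and Ednrb was 9.70 to 10.01 on wild-type vehicle arrays and 10.07 to 10.17 on wild-type sildenafil arrays. In Marfan lungs it was 9.76 to 10.16 with vehicle and 8.80 to 10.10 with sildenafil. The single endothelial genes were split in the sildenafil comparison averaged over genotypes. Gpihbp1 (-0.30 ± 0.094, SE), Cldn5, Pecam1 and Tek had lower estimates, and Plvap (0.24 ± 0.10) and the others higher ones. Their single values in the wild-type comparison are not given here. In wild-type lungs the mean of the ciliated cell markers ran the other way. The mean level of 5 measured genes (Tppp3, Ccdc153, Rsph1, Dynlrb2 and Dnah5) was 8.30 to 8.55 on wild-type vehicle arrays and 8.04 to 8.17 on wild-type sildenafil arrays. In Marfan lungs it was 8.09 to 8.46 with vehicle and 7.71 to 8.52 with sildenafil. All 5 had a lower estimate in the wild-type comparison, 2 of them with an unadjusted p under 0.05, a p that 4.45% of all genes reached in that direction. The part of the endothelial and ciliated markers in the wild-type differences was not tested. Mesothelial markers were higher in Marfan lungs in 5 of 5 genes averaged over treatments, 4 of them with an unadjusted p under 0.05 (2.8% of all genes on that side), and their part in the Marfan differences was not tested. All arrays carried the markers of lung, with 7 alveolar type 2 genes (surfactant-making cells) at a mean level between 11.73 and 12.10.

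The spread of these genes between lungs of one group was wide. The residual SD, which is the SD around the group means, was 0.74 log2 units for Fos and 0.69 for Egr1, beside a median of 0.26 over all genes. Among the 1000 genes nearest in mean level, the residual SD of Fos was at percentile 99.8, that of Egr1 at 99.4, that of Egr2 at 98.7 and that of Fosb at 96.1. For Junb, Zfp36, Dusp1, Ier2 and Btg2 the percentile was between 91.1 and 92.6, and for Jun it was 71.8. The full range over the 20 arrays was 2.82 log2 units for Fos and 0.82 for Jun.

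Within the groups the genes moved together from array to array. Deviations from the group mean were compared for all 45 pairs of genes over 20 arrays, with permutation p-values from 100000 permutations within groups (two-sided), adjusted by Benjamini-Hochberg over the 45 pairs. Pearson's r was above 0 in 41 pairs, with a median of 0.57, and 20 pairs had an adjusted permutation p under 0.05 (18 by Spearman's rho). The same counts and median over pairs of other genes are not given here. Whether moving together is particular to these genes was therefore not tested. Fos and Egr1 were the closest pair, with r = 0.91 and a permutation p of 1e-05, the smallest these permutations can give (adjusted 0.00045), and rho = 0.90 with a permutation p of 3e-05 (adjusted 0.000675). The value of r was 0.87 without the 2 arrays farthest from the median Fos deviation. Fos and Zfp36 followed with r = 0.87 and rho = 0.89 (adjusted permutation p 0.0012 and 0.00075), and Ier2 and Btg2 with r = 0.84 and rho = 0.84 (adjusted permutation p 0.0116 and 0.00611). Without the 2 arrays farthest from the median, r was 0.82 for Fos with Zfp36 and 0.76 for Ier2 with Btg2. Jun and Junb, which can pair with the same Fos proteins, had r = 0.06 and rho = 0.11 (adjusted permutation p 0.833 and 0.726), and r = 0.31 without array 9.

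**Figure D4:**
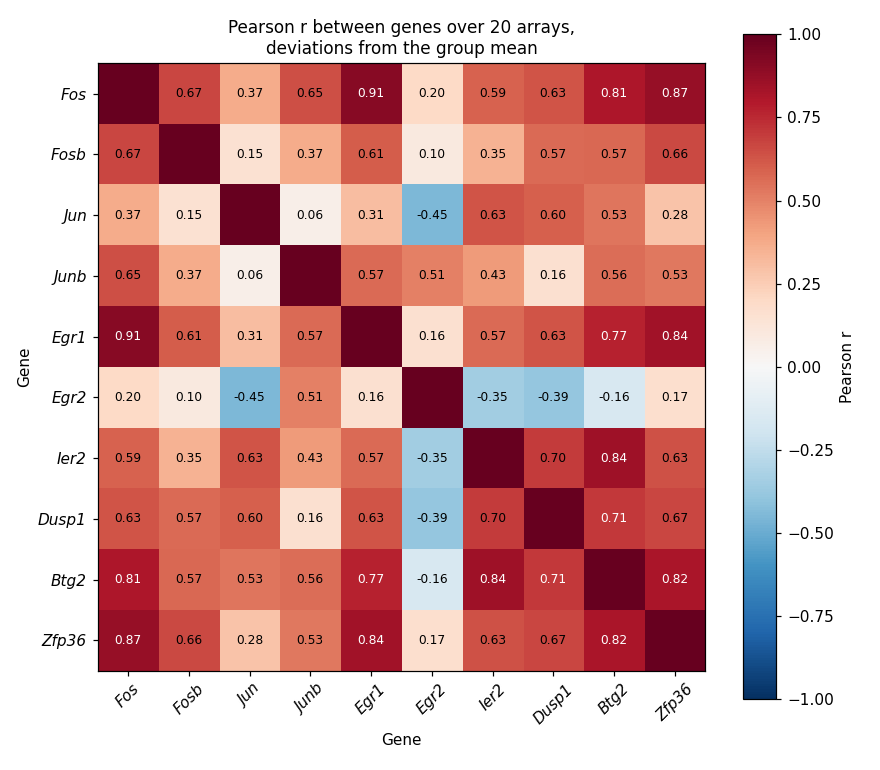
Pearson correlation between the 10 genes over 20 arrays, each value taken as its deviation from the group mean; rows and columns are genes and the colour and number give r. Fos, Egr1, Zfp36 and Btg2 correlate at 0.77 or more with each other, and the negative values all belong to Egr2.

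The 4 negative pairs all involved Egr2, with Jun (r = -0.45), Dusp1 (-0.39), Ier2 (-0.35) and Btg2 (-0.16). Without array 9, all 45 values of r were above 0 and the median was 0.60. Against the mean of the other 9 genes, Fos reached r = 0.94, Zfp36 0.89, Egr1 0.88 and Btg2 0.83. Egr2 reached 0.05, or 0.40 without array 9, and Jun 0.32, or 0.42 without it. These correlations are across arrays that share a normalization, and the labels give no RNA integrity value or time of dissection for a single array.

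Of 9743 other genes in the brighter part of the array, those whose deviations were most like the mean deviation of the 10 genes over the 20 arrays were, by Pearson's r, Stx11 (0.80), Ccn1 (0.77), Zfand3 (0.74), Rgs18 (0.73), Gnaz (0.71), Sh3bgrl2 (0.71), Pf4 (0.71) and Tubb4b (0.70). Stx11 encodes a syntaxin of immune cell and platelet granule release, Ccn1 a secreted matrix protein that is itself an immediate early gene, and Pf4 platelet factor 4. These 8 are the top of a ranking, and no test was applied to them. Stx11, Ccn1, Gnaz and Sh3bgrl2 had averaged sildenafil differences of 0.31 ± 0.14 (SE), 0.41 ± 0.17, 0.41 ± 0.17 and 0.25 ± 0.12. Rgs18 and Pf4 had 0.33 ± 0.24 and 0.18 ± 0.27, and Zfand3 and Tubb4b -0.0083 ± 0.075 and -0.094 ± 0.062. None of the 8 passed adjustment in limma. Without Marfan sildenafil array 9, Gnaz stood at rank 10 and Tubb4b at rank 14 of this ranking, and the others stayed among the first 8.

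A further 39 genes of the immediate early class, all measured, had a smaller median difference than the 10 members, but not every gene did. Averaged over genotypes, Nr4a3 had the largest difference of the 39, at 0.59 ± 0.28 (SE, unadjusted limma p 0.0421). That was above every member except Fos and Egr1. Averaged over genotypes, 32 of 39 were higher with sildenafil (49% of all genes were), with a median of 0.13. Of the 39, 7 had an unadjusted p under 0.05 on the higher side (5.17% of all genes) and 0 on the lower, and 0 passed adjustment by limma. Ptgs2, the inducible cyclooxygenase, averaged 0.35 ± 0.11 (SE, unadjusted limma p 0.00419), and Nfkbiz, a nuclear regulator of NF-kappaB targets, 0.25 ± 0.089 (0.0105). Pim1, a survival kinase, averaged 0.42 ± 0.17 and Fosl2, another Fos relative, 0.30 ± 0.12. On the Marfan sildenafil arrays Pim1 ran from 7.905 to 9.53, with a mean of 8.33 ± 0.68 (SD). In Marfan against wild-type lungs averaged over treatments, Ptgs2 was lower by an estimate of -0.37 ± 0.11 (unadjusted limma p 0.00327, adjusted p 0.918).

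**Figure D5:**
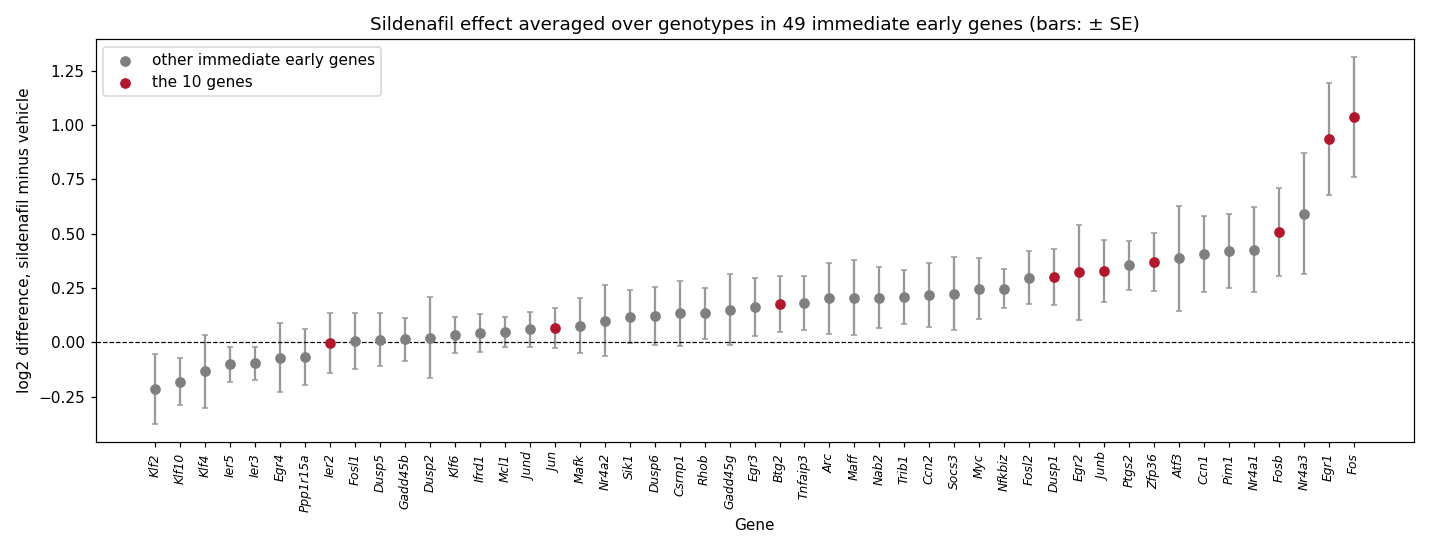
Averaged sildenafil minus vehicle difference in log2 units (points) with its SE (bars) for all 49 immediate early genes, ordered by the difference; the 10 genes described here are in red and the other 39 in grey. Fos (1.04) and Egr1 (0.93) stand at the top, and Ier2 (-0.0041) and Jun (0.067) lie among the grey points near 0.

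Upstream of these promoters, 22 of 26 listed kinases and transcription factors were measured. Of the 22, 16 were higher with sildenafil averaged over genotypes (49% of all genes were), with a median of 0.094, and 5 had an unadjusted p under 0.05 on the higher side (5.17% of all genes) and 0 on the lower. Srf averaged 0.22 ± 0.097 (SE), its coactivators Mrtfa and Mrtfb 0.20 ± 0.091 and 0.17 ± 0.067, and the MAP kinase cascade member Map3k1 0.18 ± 0.084. None passed adjustment (the lowest adjusted limma p of the list was 0.327). Other members of the AP-1 superfamily were split, 4 higher and 4 lower of 8 measured, with 0 of them at an unadjusted p under 0.05. Maf averaged 0.14 ± 0.097, Batf -0.11 ± 0.13, Jdp2 -0.066 ± 0.098 and Atf4 -0.043 ± 0.068.

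Genes of other stress responses did not run in one direction with sildenafil. Of 9 heat shock genes, 3 were higher and 6 lower averaged over genotypes, with the mitochondrial chaperonin Hspe1 at -0.32 ± 0.094 (SE, unadjusted limma p 0.00225) and the cochaperone Bag3 at 0.26 ± 0.11 (0.0218). Hspd1, the partner of Hspe1, averaged -0.16 ± 0.081 and Dnajb1 -0.25 ± 0.16. Of 11 hypoxia-responsive genes 5 were higher and 6 lower, with Bnip3 at -0.21 ± 0.070, Ndrg1 at 0.28 ± 0.12, Hk2 at 0.32 ± 0.18 and Ddit4 at -0.23 ± 0.13. Of 11 glucocorticoid-responsive genes 5 were higher and 6 lower, with Sult1a1 at -0.42 ± 0.11 (unadjusted limma p 0.00109), Errfi1 at -0.17 ± 0.097, Tsc22d3 at -0.25 ± 0.16 and Cdkn1a at 0.14 ± 0.12. None of these genes passed adjustment in limma.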

How the data were processed

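Lung RNA was labelled with the GeneChip Pico kit and hybridised to Affymetrix arrays, per the labels' protocols. The log2 values were made by the authors with Affymetrix Expression Console and RMA, per the submitters' processing notes. The sources used here do not give versions, the array's genome build, or whether one run covered all arrays. The deposited table has 24 columns, of which 20 hold values. Of its 29129 entries 6923 are controls, and of 22206 transcript probe sets 19572 have 1 gene symbol, 2634 have none and 0 have several. The array medians of the deposited log2 values ran from 5.32 to 6.45, so the values were quantile-normalized over the 20 arrays. Where a gene had several probe sets, the one of highest mean stood for it (19505 genes). One mean per group was fitted with limma 3.58.1 (lmFit, eBayes with a variance trend, 16 residual degrees of freedom) in R 4.3.3, and two-sided p-values were adjusted by Benjamini-Hochberg over all genes of a comparison with a threshold of 0.05. The labels give no batch and do not state that each sample is a separate mouse; p-values measure only how far these samples differ, which may be technical. The number of arrays limits the precision. Sequences came from RefSeq promoters of GRCm38.p6.

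The 10 members and all gene lists were chosen with earlier results of these data known, so no test was applied to a list as a whole. Besides the 10 members, up to 4 genes of each list that marks no cell type were named by the smallest unadjusted p of the averaged sildenafil comparison, and the 8 genes most like the members by their deviations. Nr4a3 was named for the largest averaged sildenafil difference among the other immediate early genes. The alternatives tried were the deposited values without quantile normalization or centred on the median, array brightness and the Y-linked genes as covariates, array weights, no or a robust variance trend, another probe set per gene, the brighter genes only, a fit of the compared groups alone, and leaving out each array in turn. The code was tested on simulated data with known changes. Fbn1, the gene of fibrillin-1, and Xist are not analysed here.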

Additional observations from a re-analysis of the deposited data

Results flagged for a closer look

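In 3 of the 40 sets of arrays (10 genes in 4 groups), 1 array lay far from the others of its group by Dixon's test, which chance does in about 1 in 20 groups. Egr2 read 9.67 on Marfan sildenafil array 9, and the next array of that group read 7.50. Marfan vehicle array 22 gave both others. Ier2 read 8.07 there beside 7.37 on the next array, and Zfp36 read 9.93 beside 9.09. No gene showed opposite sildenafil effects on every array of the 2 genotypes.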

How the results depend on the processing

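No paired analysis was possible because the array numbers run on across the groups and none is shared. No member passed the adjusted threshold under any setting, with the adjusted limma p of the averaged sildenafil difference of Fos between 0.0611 and 0.495 over the other settings and between 0.0808 and 0.37 without single arrays. The number of members with an unadjusted p under 0.05 in that comparison was 4 to 8 over the other settings and 4 to 7 without single arrays. The 8 came with the deposited values. With the deposited values the median of all genes moved to 0.16 in the averaged sildenafil and 0.13 in the averaged Marfan comparison, and the members lay 0.38 above and 0.22 below it. For Marfan against wild-type, members with an unadjusted p under 0.05 on the lower side numbered 0 to 3 under vehicle and 0 to 6 averaged over the other settings (6 with brightness as a covariate), and 0 to 5 and 1 to 6 without single arrays. With the deposited values 2 members had one on the higher side under vehicle. The shares of all genes printed above belong to the fit as reported, and those under these settings are not given here. The number of arrays limits the precision of these values, and the causes of the changes below were not tested.

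Genes past the threshold, 0 in every comparison as reported, numbered 5, 3 and 2 with the deposited values in the Marfan vehicle, averaged sildenafil and averaged Marfan comparisons, 1, 68 and 5 with array weights, and 10 in the averaged sildenafil comparison among the brighter genes. Without single arrays these counts ran from 0 to 2 for the genotypes compared under vehicle (2 without Marfan sildenafil array 9, 1 without wild-type vehicle array 17) and from 0 to 74 for the averaged sildenafil comparison. In the latter it was 74 without Marfan sildenafil array 9, 25 without Marfan sildenafil array 10 and 1 without Marfan vehicle array 24. For the averaged Marfan comparison the count ran from 0 to 2 (2 without wild-type vehicle array 17). The median of the members with the deposited values was 0.062 for the genotypes compared under vehicle, 0.66 for sildenafil in wild-type lungs and -0.39 for the interaction.

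Single members changed sign as follows, most of them near 0. With the deposited values, Marfan against wild-type under vehicle gave Jun 0.24, Junb 0.12, Egr1 0.022 and Ier2 0.10, sildenafil in Marfan lungs gave Jun 0.046, the interaction gave Fos -0.17, Dusp1 -0.15 and Zfp36 -0.13, the averaged sildenafil comparison gave Ier2 0.19 and the averaged Marfan comparison Jun 0.022. With values centred on the median, sildenafil in wild-type lungs gave Ier2 -0.0033, in Marfan lungs Jun 0.016, and the interaction Junb 0.0084 and Btg2 0.097. With brightness as a covariate, sildenafil in wild-type lungs gave Ier2 -0.087 and Btg2 -0.017, the interaction Egr1 0.25, Ier2 0.022 and Btg2 0.15, and the averaged Marfan comparison Fosb -0.11. With the Y-linked covariate the interaction of Dusp1 was -0.011. With array weights, sildenafil in Marfan lungs gave Jun 0.099 and Ier2 0.11, Marfan against wild-type under sildenafil Egr2 -0.21, the interaction Ier2 0.028 and Btg2 0.13, the averaged sildenafil comparison Ier2 0.092, and the averaged Marfan comparison Fosb -0.0061 and Egr2 -0.040.

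Without single arrays, the members whose sign changed at least once had these ranges. For Marfan against wild-type under vehicle Jun ran from -0.11 to 0.064. For sildenafil in wild-type lungs Ier2 ran from -0.026 to 0.14. For sildenafil in Marfan lungs Egr2 ran from -0.20 to 0.45, Ier2 from -0.17 to 0.11 and Jun from -0.11 to 0.077. For Marfan against wild-type under sildenafil Egr2 ran from -0.31 to 0.34 and Fosb from -0.63 to 0.074. For the interaction the ranges were -0.17 to 0.10 for Btg2, -0.17 to 0.15 for Dusp1, -0.44 to 0.13 for Egr1, -0.58 to 0.069 for Egr2, -0.15 to 0.51 for Fos, -0.22 to 0.064 for Ier2, -0.16 to 0.12 for Junb and -0.051 to 0.29 for Zfp36. For the averaged sildenafil comparison Ier2 ran from -0.063 to 0.079. For the averaged Marfan comparison Egr2 ran from -0.021 to 0.30 and Fosb from -0.15 to 0.20.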
